A study of Mus musculus with 10 samples.

Results

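The regions described here are stretches of the mouse genome where a SOX2 peak was called in a single SOX2 library. They were chosen by merging the peaks of the SOX2 replicate 1 and replicate 2 lists wherever these overlapped by 1 bp or more, and by keeping merged regions that held a peak of only one of the lists. Of 5115 merged regions, 2746 met this rule, 299 of them from replicate 1 alone and 2447 from replicate 2 alone, while 2369 regions held peaks of both libraries and are called shared regions below. Every one of the 2746 regions consisted of exactly 1 peak. The study mapped SOX2 and SOX15, each carrying an HA tag from its own knock-in locus, by chromatin immunoprecipitation and sequencing (ChIP-seq) of formaldehyde-crosslinked mouse embryonic stem cells (ESCs) grown with 2i/LIF, conditions that favour naive pluripotency. It comprised 2 SOX2 ChIP libraries, 3 SOX15 ChIP libraries and 5 input libraries, and the analysis used the 5 lists of ChIP peaks. Both factors were precipitated through the same tag, and the inputs were not analysed here. No further treatment, time point, clone or passage is named in the labels. Whether replicate libraries came from different cultures is not stated, and differences between them may be technical. Peak lists carry no expression values, so the labelled cell type could not be checked by its transcripts.

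SOX2 and SOX15 belong to the SOX family, whose HMG box binds the minor groove of short AT-rich sites and bends the DNA. In ESCs SOX2 often binds beside POU5F1 (OCT4), which reads the octamer ATGCAAAT, and the pair occupies enhancers of genes that keep the cells pluripotent. Enhancers of this kind mostly lie inside introns or between genes, while clustered histone genes, small nucleolar RNA (snoRNA) hosts and ribosomal protein genes are short or heavily transcribed units found in every dividing cell.

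Sequence was examined only where a summit fell in a listed promoter, which covers a small part of each subgroup. Of the 32817 distinct promoter windows in the RefSeq table of GRCm38.p6 (250 bases before to 50 bases after a start), 27 held the summit of a replicate 1 alone region (24 of the 299 regions) and 39 that of a replicate 2 alone region (36 of the 2447). The promoters below are printed 5′ to 3′ in lower case, with matches to the SOX site AACAATG or the octamer ATGCAAAT on either strand in capitals. H2bc3 (chr13:23746484-23746783, plus strand), a histone H2B gene, is an example of a histone promoter of replicate 1 alone, Klf2 (chr8:72318812-72319111, plus strand) is a naive pluripotency regulator, and Cited2 (chr10:17722978-17723277, plus strand), a transcriptional co-regulator, is the only one of the 27 with a SOX match. Neurog1 (chr13:56252131-56252430, minus strand), a proneural transcription factor, and Prickle1 (chr15:93519471-93519770, minus strand), a planar cell polarity gene, are shown for replicate 2 alone because they hold a SOX match. They are not typical of its 39 promoters, 27 of which held neither motif. In replicate 1 alone 4 of the 27 promoters held a motif, so H2bc3 and Cited2 are not typical either.
H2bc3: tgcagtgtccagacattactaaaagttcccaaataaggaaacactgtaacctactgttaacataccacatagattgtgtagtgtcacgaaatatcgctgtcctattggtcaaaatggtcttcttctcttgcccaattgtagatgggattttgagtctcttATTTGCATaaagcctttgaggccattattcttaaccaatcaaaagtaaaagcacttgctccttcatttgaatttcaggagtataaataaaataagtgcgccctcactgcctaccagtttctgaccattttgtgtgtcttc
Klf2: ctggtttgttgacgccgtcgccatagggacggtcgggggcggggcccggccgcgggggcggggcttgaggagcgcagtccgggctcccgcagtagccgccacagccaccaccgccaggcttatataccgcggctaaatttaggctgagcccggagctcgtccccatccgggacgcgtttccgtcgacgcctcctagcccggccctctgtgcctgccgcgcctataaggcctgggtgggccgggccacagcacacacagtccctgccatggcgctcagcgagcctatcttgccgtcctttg
Cited2: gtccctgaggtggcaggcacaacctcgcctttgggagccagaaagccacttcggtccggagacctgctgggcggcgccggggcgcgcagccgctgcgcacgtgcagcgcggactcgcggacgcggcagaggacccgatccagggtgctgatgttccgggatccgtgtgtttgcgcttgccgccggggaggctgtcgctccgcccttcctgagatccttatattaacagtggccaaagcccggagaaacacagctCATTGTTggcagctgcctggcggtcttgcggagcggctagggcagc
Neurog1: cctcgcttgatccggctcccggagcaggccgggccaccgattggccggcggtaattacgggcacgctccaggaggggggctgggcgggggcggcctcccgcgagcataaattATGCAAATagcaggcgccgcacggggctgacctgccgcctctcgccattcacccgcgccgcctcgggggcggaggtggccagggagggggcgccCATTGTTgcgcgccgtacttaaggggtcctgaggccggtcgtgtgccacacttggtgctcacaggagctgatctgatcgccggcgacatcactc
Prickle1: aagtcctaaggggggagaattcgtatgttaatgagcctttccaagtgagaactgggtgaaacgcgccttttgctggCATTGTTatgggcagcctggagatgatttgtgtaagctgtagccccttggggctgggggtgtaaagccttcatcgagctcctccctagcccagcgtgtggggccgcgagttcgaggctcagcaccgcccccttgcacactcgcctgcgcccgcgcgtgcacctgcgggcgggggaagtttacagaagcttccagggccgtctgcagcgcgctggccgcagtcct
With positions counted in bases from the start (0, negative upstream), the SOX match in Prickle1 began at −174 and the SOX2 summit lay at −176. In Neurog1 the SOX match began at −44 and the summit lay at −26, and an octamer began at −138. The octamer of H2bc3 began at −90 and its summit lay at 25, downstream of the start. Klf2 held neither motif, with its summit at 39, and the summit of Cited2 lay at 7, within its SOX match, which began at 4.

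SOX matches were found in 1 of the 27 promoters of replicate 1 alone (3.70%), in 10 of the 39 of replicate 2 alone (25.6%), in 5 of the 33 with a shared summit (15.2%) and in 1242 of all 32817 promoters (3.78%). Octamers occurred in 3 of 27 (11.1%), 4 of 39 (10.3%), 6 of 33 (18.2%) and 570 of all (1.74%). The 3 of replicate 1 alone were all promoters of histone genes, H2bc3, H2ac4 and H2ac12, and its promoters of other genes held no octamer. The 2 motifs share the letters ATG at an end, and the counts take each motif separately. Median GC content was 61.7% for replicate 1 alone, 51.3% for replicate 2 alone, 54.0% for shared summits and 52.7% for all promoters. Summits lay at or after the start in 12 of the 27 promoters of replicate 1 alone, in 3 of the 39 of replicate 2 alone and in 8 of the 33 shared ones. A SOX15 peak covered the region in 19 of the 27 promoters, 0 of the 39 and 7 of the 33. Several of these windows overlap each other, the 27 windows coming from 24 regions and the 39 from 36, so the shares are a description of few loci.

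By the values that chose them, both subgroups were weak members of their own lists. Fold enrichment, a linear ratio over background given by the peak caller, ranged from 3.36 to 16.1 with a median of 6.45 in replicate 1 alone, against a median of 8.67 and a maximum of 60.6 for the same library at shared regions. In replicate 2 alone it ranged from 1.45 to 17.5 with a median of 7.0, against a median of 11.2 and a maximum of 64.5. Median −log10 q was 7.61 against 15 in replicate 1 and 9.90 against 26.1 in replicate 2, and median peak width 253 bp against 310 bp and 283 bp against 398 bp. Replicate 1 alone held 11.2% of the 2676 peaks of its list, and replicate 2 alone held 50.8% of the 4817 peaks of its list. Among regions with a replicate 2 peak, those of replicate 2 alone made up 78.2% of the lowest of 4 equal fold bins, 71.7% and 44.0% of the next bins and 9.39% of the highest. The corresponding shares for replicate 1 alone were 24.9%, 13.3%, 6.30% and 0.30%, so only 2 regions of replicate 1 alone stood in the highest bin. A region without a peak in a list may lie under the caller's threshold there, and the lists give no read counts, so being called in a single library does not show that the other library lacked signal.

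**Figure D1:**
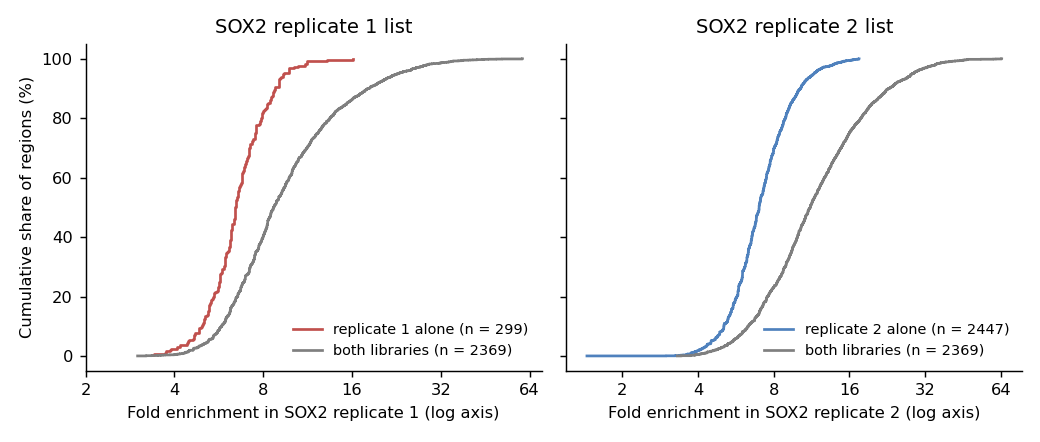
Cumulative share of SOX2 regions (vertical axis, percent) by fold enrichment in SOX2 replicate 1 (left) and replicate 2 (right) on a log axis; coloured lines are regions of that library alone and grey lines are shared regions. The coloured lines end at 16.1 and 17.5, while the grey lines run to 60.6 and 64.5.

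The 1 bp rule left a clear gap between members and shared regions. The shared regions with the least overlap lay nearest to Pdia4, Eef1a1 and Pstpip1, where peaks of the 2 libraries shared 102, 106 and 127 bp. The closest misses of replicate 1 alone lay near H4c9, Ube2m and H3c3, at gaps of 40, 96 and 110 bp from a replicate 2 peak, and those of replicate 2 alone near Rdh10, Sall3 and Cggbp1, at gaps of 81, 85 and 89 bp. Within 200 bp of a peak of the other library were 7 regions of replicate 1 alone and 10 of replicate 2 alone.

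The subgroups differed most in their overlap with SOX15. A peak in at least 1 of the 3 SOX15 libraries overlapped 98 of the 299 regions of replicate 1 alone (32.8%, 95% Wilson interval 27.7 to 38.3), 13 of the 2447 of replicate 2 alone (0.53%, 0.31 to 0.91) and 190 of the 2369 shared regions (8.02%, 6.99 to 9.18). Over all 5115 regions the share was 5.88%. Replicate 1 alone lay 32.2 percentage points above replicate 2 alone (two-sided Fisher's exact test with Benjamini-Hochberg adjustment over 19 tests, adjusted p = 7.78e-85) and 24.8 points above shared regions (adjusted p = 1.55e-28). For replicate 2 alone the difference from shared regions was −7.49 points (Fisher's exact test, adjusted p = 5.11e-44). Regions are not replicates and neighbouring ones share loci, so these p-values describe the lists at hand.

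All 3 SOX15 libraries gave the same order. SOX15 replicate 1 had a peak at 65 regions of replicate 1 alone (21.7%), 4 of replicate 2 alone (0.16%) and 72 shared regions (3.04%), against 2.76% over all regions. SOX15 replicate 2 had one at 76 (25.4%), 7 (0.29%) and 71 (3.00%), against 3.01% over all. For SOX15 replicate 3 the counts were 68 (22.7%), 6 (0.25%) and 185 (7.81%), against 5.06% over all. Every pairwise difference in these libraries passed the test, with adjusted p between 1.14e-67 and 2.53e-13. A sign test over 3 libraries cannot go below 0.25 and was not used. SOX15 peaks were present in all 3 libraries at 43 regions of replicate 1 alone, at 1 of replicate 2 alone and at 66 shared regions.

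Some regions shared a SOX15 peak, the 65, 76 and 68 calls at replicate 1 alone resting on 61, 72 and 63 SOX15 peaks. These were 28.1%, 10.7% and 14.4% of the 217, 672 and 437 peaks of SOX15 replicates 1, 2 and 3. Taking the highest SOX15 fold at each region with a SOX15 peak, the medians over regions of replicate 1 alone were 8.80, 6.92 and 7.48. Those over shared regions were 16.9, 20.6 and 7.66. A SOX15 peak on several regions counts once for each of them. The medians over peaks of the whole SOX15 lists, a different unit, were 8.34, 5.32 and 6.41.

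**Figure D2:**
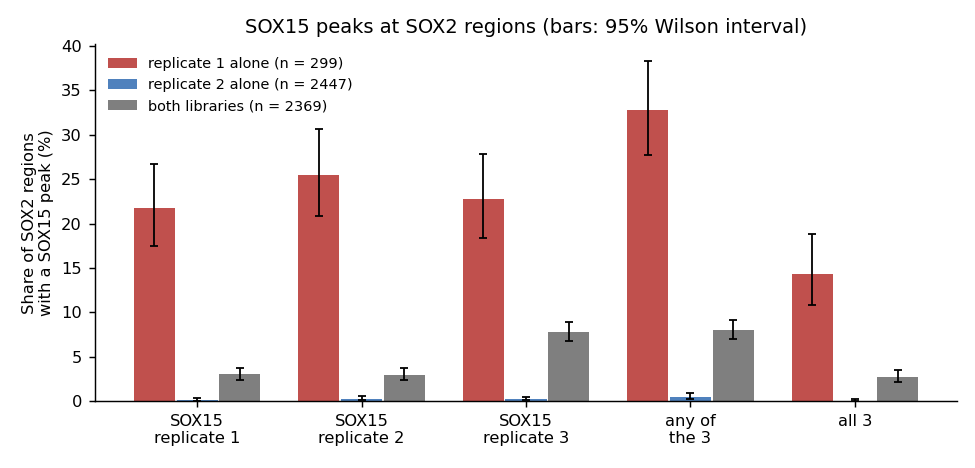
Share of SOX2 regions with a SOX15 peak (vertical axis, percent) for each SOX15 library, for any of the 3 and for all 3; bars are the 3 classes of SOX2 region and error bars the 95% Wilson interval, which covers counting error alone. Replicate 1 alone stands highest in every column, with 32.8% for any library, and replicate 2 alone stays under 1%.

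The length of the lists bears on these shares. With the replicate 2 list cut to the 2676 peaks with the highest −log10 q, replicate 1 alone grew to 728 regions, of which 135 (18.5%) had a SOX15 peak, and replicate 2 alone shrank to 733, of which 1 (0.14%) did. The difference between the subgroups was then 18.4 points (adjusted p = 2.17e-41) and that of replicate 1 alone from shared regions 10.6 points (adjusted p = 1.49e-13, Fisher's exact test). When regions within 50 kb of each other were counted as 1 locus, a choice made after seeing the data, replicate 1 alone exceeded shared loci by 15.5 points (Fisher's exact test, adjusted p = 5.01e-12). Without SOX15 replicate 3 the difference of replicate 2 alone from shared regions was −2.80 points (Fisher's exact test, adjusted p = 7.34e-15).

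Within bins of SOX2 fold the order was the same. In the lowest bin of the replicate 1 list, from 3.00 to 6.60, a SOX15 peak lay on 57 of 166 regions of replicate 1 alone (34.3%) and on 14 of 501 shared regions (2.79%). In the next bins it lay on 24 of 89 (27.0%) against 18 of 578 (3.11%), and on 15 of 42 (35.7%) against 26 of 625 (4.16%). Both of the 2 regions in the highest bin had one, against 132 of 665 shared regions (19.8%). In the replicate 2 list the bins held 8 of 941, 3 of 863, 2 of 530 and 0 of 113 regions of replicate 2 alone with a SOX15 peak, against 27 of 263, 13 of 341, 19 of 674 and 131 of 1091 shared regions. At the 0.53% share of the whole subgroup, a count of 0 in 113 regions does not set the highest bin apart.

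**Figure D3:**
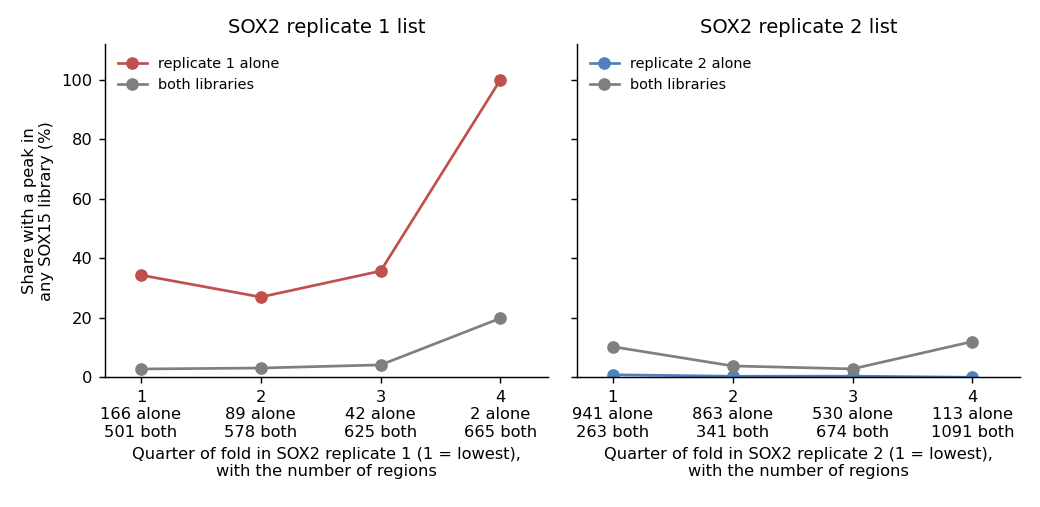
Share of regions with a peak in any SOX15 library (vertical axis, percent) by bin of SOX2 fold (4 bins of equal size, lowest to highest) in the replicate 1 list (left) and the replicate 2 list (right), with the number of regions under each bin; coloured points are regions of that library alone and grey points shared regions. Replicate 1 alone lies above the grey line in every bin, its last point resting on 2 regions, and replicate 2 alone lies below it in every bin.

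Gene context also separated the subgroups. Summits within 1 kb of an end of a protein-coding gene made up 69 of the 299 regions of replicate 1 alone (23.1%, 18.7 to 28.2), 115 of the 2447 of replicate 2 alone (4.70%, 3.93 to 5.61) and 130 shared regions (5.49%, 4.64 to 6.48), against 6.14% of all regions. Replicate 1 alone exceeded replicate 2 alone by 18.4 points (Fisher's exact test, adjusted p = 4.33e-23) and shared regions by 17.6 points (adjusted p = 4.03e-20). The difference between replicate 2 alone and shared regions, −0.79 points, did not pass Fisher's exact test (adjusted p = 0.28). Summits inside a protein-coding gene made up 47.2%, 46.6% and 45.1%, against 45.9% of all regions, and none of these pairs passed the test (adjusted p between 0.35 and 0.85).

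The gene table has no strand, so an end can be a start or a 3′ end. With the starts that the promoter table lists, 56 regions of replicate 1 alone (18.7%), 73 of replicate 2 alone (2.98%) and 87 shared regions (3.67%) lay within 1 kb of a start, a comparison added after seeing the data. Without regions within 1 kb of small nuclear RNA (snRNA), snoRNA or clustered histone genes, the gene-end share of replicate 1 alone was 13.3% (34 of 256) and exceeded replicate 2 alone by 8.69 points (Fisher's exact test, adjusted p = 4.59e-07) and shared regions by 8.87 points. With the replicate 2 list cut as above, that difference was 10.2 points (adjusted p = 5.93e-11) and that from shared regions also 10.2 points (adjusted p = 8.39e-17, Fisher's exact test). Farther from genes, 36 regions of replicate 1 alone (12%), 336 of replicate 2 alone (13.7%) and 312 shared regions (13.2%) lay over 100 kb from any protein-coding gene.

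Clustered histone genes, which supply histones during DNA replication, accounted for 28 regions of replicate 1 alone (9.36%), 3 of replicate 2 alone (0.12%) and 20 shared regions (0.84%), against 0.997% of all regions. The regions of replicate 1 alone lay within 1 kb of 31 of the 63 genes of this class, and 27 of the 28 lay on chromosome 13. Their SOX2 folds ran from 3.36 to 16.1 with a median of 6.98. All 28 had a SOX15 peak, 18 of them in all 3 libraries, as had 19 of the 20 shared regions at these genes, again 18 in all 3. The strongest region of the whole subgroup lay 131 bp from H2ac4, a histone H2A gene, at chr13:23751505-23752104, with a SOX2 fold of 16.1 and SOX15 folds of 11.2, 10.8 and 6.51 in replicates 1, 2 and 3. The region at H4c1, a histone H4 gene, at chr13:23760155-23760678 had a SOX2 fold of 13.2 and SOX15 folds of 10.1, 9.49 and 11.2. The one across H1f1, a linker histone gene, at chr13:23763593-23765179 had a SOX2 fold of 7.33 and SOX15 folds of 20.7, 21.9 and 22.2. The H1f1 region was picked after its values were seen. Folds are comparable only within a library, so the SOX15 and SOX2 values show presence and rank and do not compare binding. Near-identical histone copies can share reads, so the split between copies is uncertain.

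Other classes of ubiquitously transcribed genes followed, with few regions each. snoRNA genes, which guide the modification of ribosomal RNA, lay within 1 kb of 13 regions of replicate 1 alone, 3 of replicate 2 alone and 4 shared regions, against 0.391% of all regions. Ribosomal protein genes did so for 7, 1 and 0 regions (0.156% of all), among them Rps9, Rps12, Rps20, Rpl3 and Rpl36 for replicate 1 alone. Translation factor genes gave 5, 0 and 2 regions (0.137% of all) and hnRNP and SR splicing factor genes 4, 0 and 3 (0.137% of all). Housekeeping and chaperone genes gave 8, 1 and 4 regions (0.254% of all). These class counts overlap. The regions of replicate 1 alone at Rps12, Rps20 and Rpl3, and some at Eif4a2, also lay within 1 kb of snoRNA genes and count in both classes. Genes annotated as snRNA had 2 regions of replicate 1 alone (0.67%), 2 of replicate 2 alone (0.082%) and 34 shared regions (1.44%), against 0.743% of all regions. One or more of these 7 classes lay within 1 kb of 61 regions of replicate 1 alone (20.4%), 9 of replicate 2 alone (0.37%) and 67 shared regions (2.83%). These classes were chosen with earlier results known, so no test is given.

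Among single loci, Gapdh, a glycolytic enzyme, had a region of replicate 1 alone at chr6:125161356-125161787 with a SOX2 fold of 7.48 and SOX15 folds of 6.74, 13.1 and 10.3. Its summit lay 364 bp past the 3′ end of Gapdh and inside the neighbouring gene Iffo1. Past the 3′ end of Eif4a2, an RNA helicase of translation initiation, lay a region at chr16:23114362-23115050 with a SOX2 fold of 11.2, its summit 546 bp beyond the end, and SOX15 folds of 8.62, 4.89 and 13. This stretch is annotated inside Rfc4, which encodes a replication factor subunit. Hsp90ab1, a chaperone, had 2 regions of replicate 1 alone within 1 kb, with SOX2 folds of 6.28 and 5.99. Both lay under 1 SOX15 peak per library with folds of 13.1, 13 and 11.9, and were picked after their values were seen. Among protein-coding genes of 3 kb or more with a known strand, 12 regions of replicate 1 alone (4.01%) lay within 1 kb of a 3′ end and of no start, and 10 (3.34%) within 1 kb of a start and of no 3′ end. The same counts were 21 (0.86%) and 60 (2.45%) for replicate 2 alone and 25 (1.06%) and 55 (2.32%) for shared regions. This split was made after seeing the data and was not tested.

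Zfp42 (Rex1), a marker of naive pluripotency on the minus strand of chromosome 8, had a run of such regions. Past its 3′ end lay 7 regions of replicate 1 alone, from chr8:43287590 to 43294250, that is 0.82 to 7.48 kb beyond the gene. Their SOX2 folds were 5.94, 4.18, 4.19, 5.04, 6.29, 3.74 and 6.04 from the farthest to the nearest. Each of the 7 overlapped a SOX15 peak, 3 of them in all 3 libraries. In contrast, the shared region of the locus lay on the far side of the gene's start, at chr8:43320559-43321161, with folds of 16.2 and 12.2 and no SOX15 peak. A replicate 2 alone region with a fold of 5.07 stood 11.1 kb past the 3′ end, also with no SOX15 peak on it.

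The miR-290 cluster, a family of microRNAs abundant in ESCs, also had a region of replicate 1 alone past its 3′ end. The mature 3p strands of 3 of its members share the seed (bases 2 to 8, in capitals) and are shown because the region follows the last hairpin.
mmu-miR-291a-3p: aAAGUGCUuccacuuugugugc
mmu-miR-294-3p: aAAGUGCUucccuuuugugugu
mmu-miR-295-3p: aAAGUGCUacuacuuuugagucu
The region of replicate 1 alone, chr7:3221274-3222310, began 437 bp after the mature miR-295-3p sequence, with a SOX2 fold of 4.43 and SOX15 folds of 8.28, 10.3 and 16.8. It is annotated inside Nlrp12, the nearest protein-coding gene. Upstream of the first hairpin lay 2 regions of replicate 2 alone, chr7:3212147-3212450 and chr7:3213577-3213912, with folds of 6.83 and 10.3 and no SOX15 peak on either. SOX15 peaks were not confined to the 3′ side. Before the first hairpin lay peaks of SOX15 replicate 1 (fold 10.1) and replicate 2 (fold 4.98). Over the hairpins lay peaks of replicate 2 (fold 5.25) and replicate 3 (fold 5.36). Both loci were picked after their values were seen, and the choice of regions itself keeps the subgroups from overlapping.

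**Figure D4:**
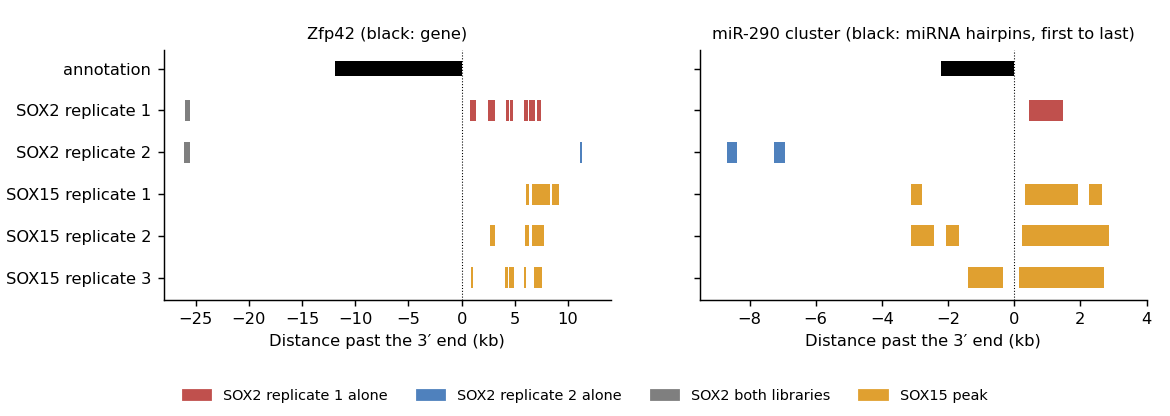
Peaks of the 5 ChIP libraries (rows) at Zfp42 (left) and the miR-290 cluster (right), drawn to scale by distance past the 3′ end of the gene or of the last hairpin (horizontal axis, kb; negative values lie before that end); colours mark the class of SOX2 region. Regions of replicate 1 alone lie past the 3′ end together with SOX15 peaks, 7 of them at Zfp42 and 1 at the miRNA cluster, and regions of replicate 2 alone have no SOX15 peak on them. At the miRNA cluster other SOX15 peaks lie before or over the hairpins.

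The regions of replicate 1 alone with and without a SOX15 peak differed in place, a split made after seeing the data and not tested. Of the 98 with a SOX15 peak, 56 (57.1%) had a summit within 1 kb of a protein-coding gene end and 52 (53.1%) lay at one of the 7 gene classes. Of the 201 without, 13 (6.47%) and 9 (4.48%) did. Among the 190 shared regions with a SOX15 peak, 38 lay within 1 kb of a gene end. SOX2 folds of the 2 sets had medians of 6.29 and 6.47, and their peaks median widths of 341 bp and 237 bp. The strongest regions of replicate 1 alone without a SOX15 peak lay 1808 kb from Pcdh7, a protocadherin gene, at chr5:59940918-59941225 with a fold of 11.2, and inside Dner, a Notch-related transmembrane gene, at chr1:84405485-84405854 with a fold of 11.1.

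Among the strong regions of replicate 1 alone with SOX15 peaks in all 3 libraries, some lay away from histone genes. The region at chr5:115464149-115464641, 1.68 kb from Pla2g1b, a secreted phospholipase gene, had a SOX2 fold of 11.1 and SOX15 folds of 12.9, 20.4 and 17.4. Between Tnfrsf14 and Hes5, a Notch target and neural repressor, the region at chr4:154943067-154943471 had a SOX2 fold of 9.16 and SOX15 folds of 10.9, 9.14 and 7.66. It lay 17.4 kb from Hes5, with the nearest shared region 727 kb away. The snRNA gene Gm25890 had one at chr3:96486029-96486386 with a SOX2 fold of 11.3 and SOX15 folds of 15.6, 12.7 and 9.22.

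The 10 regions of replicate 2 alone with the highest folds, 16.5 to 17.5, lay nearest to Erv3, Adgra3, Arhgap42, Ak9, Bicral, Agap1, Xxylt1, Rnf125, Cd47 and B4galnt3, of which Ak9, Agap1, Cd47 and B4galnt3 contained the summit. None of the 10 had a SOX15 peak or lay within 1 kb of a gene end, as was the case for nearly all regions of this subgroup, and shared regions stood 19.3 to 845 kb away. The highest, chr2:131804216-131804629, had a fold of 17.5 and a −log10 q of 44.1 and lay 49.2 kb from Erv3. The one inside Cd47, the gene of a cell-surface signal that inhibits phagocytosis, was at chr16:49860647-49861023 with a fold of 16.5.

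Of the 13 regions of replicate 2 alone with a SOX15 peak, 10 had it in a single library, 2 in 2 libraries and 1 in all 3. The last lay in Chmp2a, a subunit of the ESCRT-III membrane-remodelling complex, at chr7:13034487-13034738, with a SOX2 fold of 3.77 and SOX15 folds of 5.94, 21.1 and 7.35. The regions in 2 libraries were those near the histone genes H4c11 (SOX2 fold 7.65, SOX15 folds 4.26 in replicate 1 and 5.86 in replicate 3) and H1f5 (SOX2 fold 5.83, SOX15 folds 24.9 in replicate 1 and 6.92 in replicate 2). A region of replicate 1 alone stood 96 bp from the Chmp2a region, nearest to Ube2m, at chr7:13034835-13035095, under the same 3 SOX15 peaks.

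Distance to shared regions was shorter for replicate 1 alone. Its median from summit to nearest shared summit was 107 kb, with a range of 403 bp to 3819 kb, while that of replicate 2 alone was 217 kb (401 bp to 7344 kb) and that between shared regions 197 kb (461 bp to 15759 kb). Within 5 kb of a shared region lay 46 regions of replicate 1 alone (15.4%), 118 of replicate 2 alone (4.82%) and 153 shared regions (6.46%), against 6.2% of all regions. The 10.6 points between the subgroups passed Fisher's exact test (adjusted p = 2.91e-10). These distances rest on the same 2 SOX2 lists that chose the regions, so the test describes the lists and is no independent support. The difference no longer passed with the replicate 2 list cut to the length of replicate 1, at 1.95 points (Fisher's exact test, adjusted p = 0.12). Leaving out the regions at small RNA and histone genes, a choice made after seeing the data, gave 3.06 points (Fisher's exact test, adjusted p = 0.062). Of the 28 histone regions of replicate 1 alone, 22 lay within 5 kb of a shared region. Chromosome 13, with the main histone cluster, held 12.4% of replicate 1 alone, 4.86% of replicate 2 alone and 5.19% of shared regions. Another region of the same subgroup lay within 5 kb for 54 regions of replicate 1 alone (18.1%) and 142 of replicate 2 alone (5.80%).

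**Figure D5:**
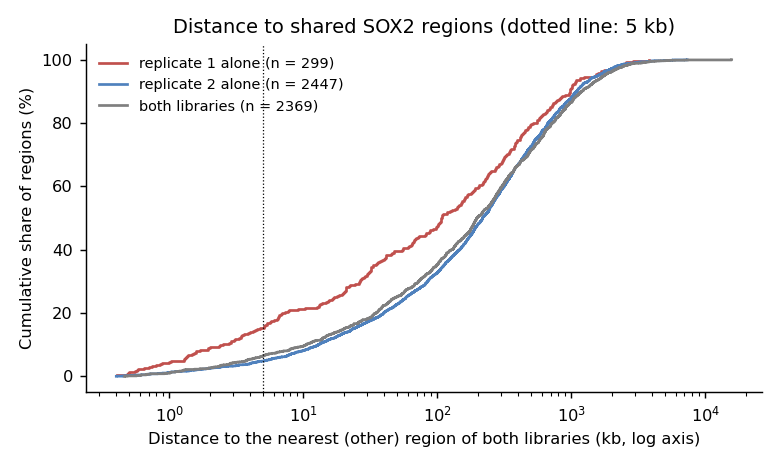
Cumulative share of regions (vertical axis, percent) by distance from the summit to the nearest summit of a shared region, or of another shared region for the grey line (horizontal axis, kb, log scale); the dotted line marks 5 kb. At that line replicate 1 alone stands at 15.4%, replicate 2 alone at 4.82% and shared regions at 6.46%, and the lines of replicate 2 alone and shared regions run close together.

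Genes of pluripotency and development had regions of both subgroups nearby. Of 21627 protein-coding genes, 2.61% had a region of replicate 1 alone within 50 kb and 14.6% one of replicate 2 alone. Of the 325 list genes found, 23 and 79 did. Among 18 naive pluripotency genes, replicate 1 alone reached 4 (Tfcp2l1, Zfp42, Klf2 and Klf5), replicate 2 alone 8 (Nr5a2, Tet2, Klf4, Tbx3, Nanog, Zfp42, Dppa5a and Esrrb), and shared regions 15. Zfp42 thus had regions of both subgroups. Among 18 core pluripotency genes and cofactors the counts were 1, 9 and 11, with Sox2, Pou5f1, Myc and Mycn among those of replicate 2 alone and Trim28 in both subgroups. The signalling lists had no region of replicate 1 alone at any member. At its 2.61% share of all protein-coding genes, a count of 0 in lists of 14 to 18 genes does not set them apart. Replicate 2 alone, at 14.6% of all genes, reached 7 of 18 WNT genes, 6 of 16 FGF and ERK genes, 5 of 18 TGF-beta, BMP and Nodal genes and 3 of 14 LIF and JAK-STAT genes. The splicing factor list went the other way, with 5 of 28 genes for replicate 1 alone and 2 for replicate 2 alone, and housekeeping genes gave 6 and 4 of 26. Counts for lists of other lineages in replicate 2 alone were 4 of 14 trophectoderm, 3 of 16 neuroectoderm, 3 of 14 endoderm, 2 of 14 mesoderm, 3 of 16 skeletal muscle and 2 of 15 liver genes. With a window of 10 kb, 50 list genes in place of 79 had a region of replicate 2 alone.

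Some genes had a region of a single library and no shared region within 50 kb. They made up 1.41% of protein-coding genes for replicate 1 alone and 10.7% for replicate 2 alone, and 8 and 44 of the 325 list genes. Those of replicate 1 alone included the neural gene Hes5, the housekeeping genes Actb and Gapdh, and the splicing factor genes Srsf9, Hnrnpa3, Hnrnph1 and Srsf7. The window can reach past nearer genes, as Srsf9 lay 26.3 kb from its region, which stood 83 bp from an end of another gene. Actb, the cytoplasmic beta-actin gene, contained a region at chr5:142906491-142906816 with a SOX2 fold of 9.03 and a peak in SOX15 replicate 2 only, with a fold of 6.12. For replicate 2 alone the 15 genes with the highest folds were Chd7, Lef1, Gsc, Dnmt3a, Dppa4, Dppa2, Lrp6, Lif, Notch1, Spred1, Id1, Nacc1, Sp5, Skil and Tet1, with folds of 8.31 to 13.3 and no SOX15 peak at any. Chd7, a chromatin remodeller, contained a region at chr4:8834181-8834549 with a fold of 13.3. Lef1, a nuclear effector of WNT signalling, had one 7.88 kb away at chr3:131102289-131102632 with a fold of 11.6, and Dnmt3a, a de novo DNA methyltransferase, contained one at chr12:3890021-3890423 with a fold of 11.2. A single region, chr16:48303563-48303976, fold 10.5, served both Dppa2 and Dppa4, neighbouring pluripotency-associated genes.

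At the SOX and core pluripotency genes themselves, regions of replicate 2 alone stood beside shared regions. Sox2 had 2 regions of replicate 2 alone within 50 kb, with folds of 8.73 and 10.4 at 3.56 and 16.2 kb from the gene, and 1 shared region. Pou5f1 had 3, with folds of 6.16, 10.1 and 10.8, and 2 shared regions, the region with a fold of 10.1 lying 0.93 kb from the gene and 1.05 kb from a shared summit. Nanog had 1, with a fold of 7.82 at 4.50 kb, and 1 shared region. Klf4 had 1 (fold 7.0) and 1 shared region, and Esrrb had 2 (folds 5.73 and 5.99) and 3 shared regions. Foxk1, a forkhead factor, contained 1 with a fold of 6.0 and had no shared region, and Hand1, a factor of trophoblast and heart development, had none of either kind. None of these regions of replicate 2 alone had a SOX15 peak. Sox15 had 1 region of replicate 1 alone, 15.5 kb away at Eif4a1, at chr11:69672096-69672408, with a SOX2 fold of 5.95 and SOX15 folds of 4.96 in replicate 2 and 6.51 in replicate 3, and 1 shared region.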

How the data were processed

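Peaks of HA-tagged SOX2 (2 libraries) and SOX15 (3 libraries) in mouse ESCs were analysed as deposited, 1 list per library. The submitters' processing notes list Bowtie2, MACS2, deepTools and mm10, with no version. Deposited values per peak are fold enrichment (linear), −log10 p-value and −log10 q-value, the summit offset and a whole-number score. That score is the −log10 q-value times 10, rounded down, in every peak. Use of the inputs as peak-calling controls was not given in the sources used here, and neither was the strategy for replicates. No list holds read counts, so depth is unknown, and intervals cover counting error alone. The number of peaks was 2676 and 4817 for SOX2 and 217, 672 and 437 for SOX15.

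Genes (21627 protein-coding, on 20 chromosomes) and promoters came from RefSeq tables of GRCm38.p6, the assembly that mm10 is based on. Strand came from the promoter table, which covers 79.9% of these genes, so gene ends without strand remained the main measure. The search for motifs was limited to promoter windows, since no genome was used here. Shares were compared between classes of regions by two-sided Fisher's exact tests, with Benjamini-Hochberg adjustment over 19 tests and a threshold of 0.05. The choice of regions did not use SOX15 peaks or gene positions. Distance to shared regions rests on the same 2 SOX2 lists that chose the regions, so it was compared between the subgroups only. Wilson intervals are at 95%. Gene windows were 1 kb for ends and classes and 50 kb for lists. Of 326 list genes 325 were found. Regions were named by fold (10 per subgroup), by SOX15 peaks in all 3 libraries (up to 10) and by list genes without a shared region (up to 15), with 8 genes always reported; others are said to be chosen after their values were seen. The members, classes and lists were chosen with earlier results of these data known. One list gene is not reported here by name. The scripts were tested on simulated data. Software was scipy 1.17.1 and pandas 2.3.3 with numpy 2.4.6 under Python 3.11.15, and figures used matplotlib 3.10.9.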

Additional observations from a re-analysis of the deposited data

Results flagged for a closer look

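The 3 differences below between the subgroups are singled out because the test of the difference itself passed. The share with a peak in any SOX15 library was 32.2 percentage points higher in replicate 1 alone than in replicate 2 alone (98 of 299 against 13 of 2447), with shared regions between them at 8.02%. The share with a summit within 1 kb of a protein-coding gene end was 18.4 points higher (69 of 299 against 115 of 2447). The share within 5 kb of a shared region was 10.6 points higher (46 of 299 against 118 of 2447), and this difference no longer passed without the regions at small RNA and histone genes or with the replicate 2 list cut to the length of replicate 1. The distance rests on the same 2 SOX2 lists that chose the regions, so its test is no independent support. All these comparisons are between 2 libraries, so library and subgroup cannot be told apart.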

How the results depend on the processing

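Across the alternatives, 55 of the 62 recomputed counts and tested differences kept their direction and their side of the threshold, or stayed within 1.5 times for counts. Of 60 recomputed shares, 32 stayed within the 95% Wilson interval of the reported share and 28 fell outside it, among them the SOX15 share of replicate 1 alone, which went from 32.8% to 18.5% with the replicate 2 list cut to the length of replicate 1. With the replicate 2 list cut to the length of replicate 1, replicate 1 alone held 728 regions and replicate 2 alone 733, the share within 5 kb of a shared region differed by 1.95 points (adjusted p = 0.12, Fisher's exact test), and the gene-end share of replicate 2 alone minus shared regions turned to 0.038 points. Without regions at snRNA, snoRNA and clustered histone genes the last 2 differences were 3.06 points (Fisher's exact test, adjusted p = 0.062) and 0.18 points. The cause of these changes was not tested. A 10 kb window gave 50 list genes with a region of replicate 2 alone. Leaving out each SOX15 library in turn, the SOX15 share of replicate 1 alone exceeded replicate 2 alone by 28.4 to 29.9 points and shared regions by 20.8 to 25.9 points, and replicate 2 alone minus shared regions ran from −7.65 to −2.80 points. Alternatives with gene starts, loci of 50 kb and the distance without small RNA and histone regions were chosen after seeing the data. No paired analysis was possible because the compared classes are regions of peak lists, and SOX2 and SOX15 libraries share numbers only, with no value per sample to pair. Depth is unknown, so a region missing from a list was not shown to lack signal.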
